A study of Mus musculus with 8 samples.

Results

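The 9 genes described here, Nkx2-2, Nkx6-1, Nkx6-2, Myrf, Zfp488, Zfp24, Tcf7l2, Sox17 and Zeb2, encode transcription factors that act in oligodendrocyte differentiation. They were chosen by name from 21887 protein-coding mouse genes, by a rule that sets no threshold on a measured value. Earlier results of these data were known when the list was made. Peaks of the remodelers Chd7 and Chd8 were sought at each gene's ends, inside the gene and up to 50 kb beyond it on both sides. The cells were O4-positive cells, sorted magnetically from cortex and corpus callosum of wild-type mice at postnatal day 7, which the labels call OPCs; no treatment was given in any group. ChIP with anti-Chd7 gave 2 libraries and ChIP with anti-Chd8 gave 1. They were set against 2 mock ChIPs with rabbit IgG, 1 of which served both Chd7 replicate 2 and Chd8, and 3 inputs without antibody.

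Oligodendrocytes arise from precursors whose exit from division and start of myelination are set by successive transcription factors. Homeodomain proteins of the Nkx family pattern the progenitors and later act in maturing cells, Myrf switches on myelin genes, and Tcf7l2, Sox17 and Zeb2 connect the lineage to Wnt and BMP signals. Chd7 and Chd8 are ATP-dependent chromatin remodelers of one family. Chd7 is known to act with Sox10 at genes of myelination, and Chd8 binds many active promoters.

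The peak lists held 5282 and 6292 Chd7 peaks (replicates 1 and 2), 18415 Chd8 peaks, 89 and 98 mock peaks, and 91628 to 178478 input peaks. Peaks are given with the fold over local background that the authors' caller computed, which serves to rank peaks inside a list and not to compare lists. ChIP peaks that touched a mock peak were left out. The lists hold no reads, so sequencing depth is unknown, and Chd8 has no replicate. Neither mock had a peak at an end, in the body or within 50 kb of any of the 9 genes, where 0.306% and 0.311% of all protein-coding genes had one. The extraction notes name the O4 antibody for isolating the complexes, where the sample labels name anti-Chd7 and anti-Chd8, and the labels do not say whether the replicates came from separate animals. Expression was not measured, so the O4 sort could not be checked by transcript levels. Chd8 lay at an end of 6 of 10 oligodendrocyte lineage markers, 1 of 5 microglial, 0 of 5 endothelial, 2 of 5 neuronal and 1 of 5 astrocyte markers, where 41.0% of all protein-coding genes had it. Input 3 had a peak at an end of 6, 1, 2, 4 and 2 genes of the same lists, beside 45.2% of all protein-coding genes.

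Chd8 had a peak at an end of 5 of the 9 genes, namely Nkx2-2, Zfp488, Zfp24, Tcf7l2 and Zeb2, and no peak at the ends or in the bodies of Nkx6-1, Nkx6-2, Myrf and Sox17. A gene end is either boundary of the annotated gene, within 1 kb. The share of 55.6% (95% Clopper-Pearson interval 21.2 to 86.3, for counting error only) stands beside 41.0% of all protein-coding genes with Chd8 at an end, which lies inside the interval. Since the genes are a named list and not a random sample, this interval and the next are descriptive and test no difference. The count was 3 (Zfp488, Tcf7l2 and Zeb2) without peaks that touch input 3, the matching input by the titles, 1 (Zfp24) when only peaks with a fold of 5 or more were kept, and 0 when a −log10 q of 5 or more was required. The whole Chd8 list shrinks under such settings too, as its upper quartile of fold is 5.105 and 40.3% of its peaks touch input 3. Shares of all genes under thresholds or input removal are not given, here or for Chd7 below. Chd7 peaks found in both replicates, overlapping by at least 1 bp, lay at the ends of 0 of the 9 genes, beside 4.83% of all genes. A Chd7 peak of a single library lay at an end of Zfp24 (replicate 1) and Nkx6-1 (replicate 2), 2 of 9 genes beside 22.0% of all genes (10.4% for replicate 1 alone and 17.0% for replicate 2 alone), and 0 without peaks that touch any input. Away from the ends Chd7 was found in both replicates at 1 site each inside Zeb2 and beside Tcf7l2, Nkx6-2 and Myrf. With these, 4 of 9 genes (44.4%, 13.7 to 78.8) had a Chd7 region of both replicates at the gene or within 50 kb, beside 16.8% of all genes, which lies inside the interval. That count was 3 without peaks that touch any input, 3 with a reciprocal overlap of 50%, 1 with flanks of 10 kb and 0 at a fold or a −log10 q of at least 5. For Chd8 the same count was 7 of 9 genes, beside 71.5%. It was 6 of 9 genes for each Chd7 replicate, beside 37.6% and 47.8% for replicates 1 and 2, and 7 of 9 for either replicate, beside 57.7%.

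Counting ends and bodies jointly, Chd8 again had peaks at the same 5 genes (49.7% of all genes). Chd7 replicate 1 had peaks at Nkx2-2, Zfp24, Tcf7l2 and Zeb2 (16.7% of all genes), replicate 2 at Nkx2-2, Nkx6-1 and Zeb2 (22.8%), and both replicates in 1 region only at Zeb2 (6.36%). The mocks had no peak at any end of the 9 genes (0.0183% and 0.0137% of all genes). Inputs 1 and 2 had a peak at an end of 2 genes each, Nkx6-2 with Zfp24 and Nkx6-1 with Nkx6-2, beside 21.9% and 28.4% of all genes. Input 3 had a peak at an end of 4 genes, Nkx2-2, Nkx6-1, Myrf and Zfp24 (45.2%), and at an end or in the body of all 9 (65.5%). All 3 inputs had a peak within 50 kb of every one of the 9 genes, beside 91.9%, 95.4% and 92.5% of all genes. What part the input signal has in the ChIP peaks that coincide with it was not tested.

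**Figure D1:**
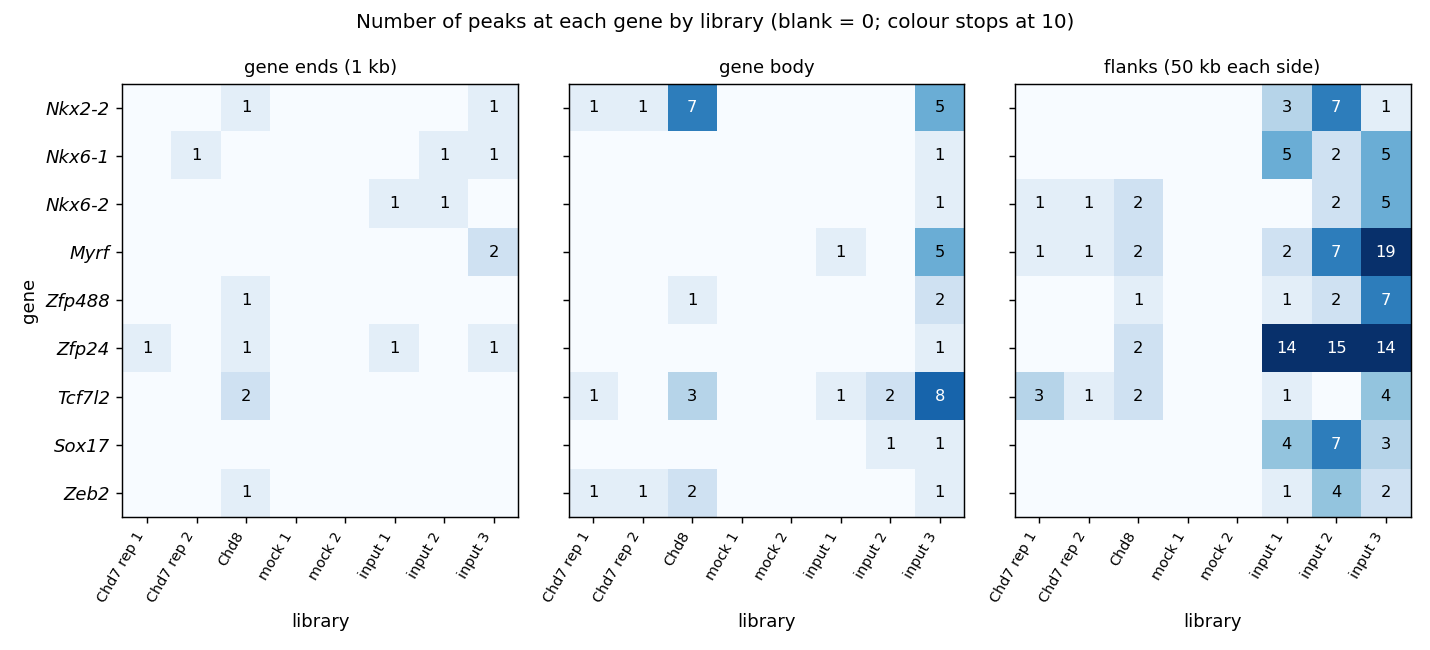
Number of peaks of each library (columns) at the ends, in the body and in the 50 kb flanks of each gene (rows); blank cells hold 0. Chd8 has peaks at the ends of 5 genes and 7 in the body of Nkx2-2, while both mock columns are blank and input 3 has peaks in or at every gene.

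The 9 loci together held 9 peaks of Chd7 replicate 1, 6 of Chd7 replicate 2 and 28 of Chd8, against 0 of either mock and 35, 51 and 90 of inputs 1, 2 and 3. Per 100 kb of locus, the mean over the 9 genes was 0.584 peaks for Chd7 replicate 1, beside 0.425 over all genes, and 0.476 for replicate 2, beside 0.605. It was 2.14 for Chd8, beside 1.70, and 3.31, 4.68 and 7.73 for inputs 1, 2 and 3, beside 3.98, 7.00 and 5.55. Replicate 1, Chd8 and input 3 thus lay above their means over all genes, and replicate 2 and inputs 1 and 2 below. Single genes weigh on these means. For Chd8, Nkx2-2 had 6.73 and the other genes 0 to 2.70, and for input 3, Myrf had 19.6 and Zfp24 14.4. The medians were 1.93 for Chd8, beside 1.12 over all genes, and 5.88 for input 3, beside 4.21. Of the 28 Chd8 peaks, 6 lay at ends, 13 in bodies and 9 in flanks, and 4 of the 9 in flanks lay at an end of a neighbouring protein-coding gene. Input 3, which the labels assign to Chd8, touched 8 of the 28 peaks (28.6%), beside 40.3% of the whole Chd8 list. No input touched 19 of them (67.9%), beside 53.7% of the list. Of the Chd7 peaks, 7 of 9 in replicate 1 and 3 of 6 in replicate 2 touched no input peak, beside 61.2% and 37.8% of those lists. A peak of Chd7 replicate 1, which has a mock of its own, touched 8 of the 28 Chd8 peaks (28.6%), beside 22.2% of all Chd8 peaks.

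In fold, the typical peak of these loci resembled the typical peak of its list. The median Chd8 peak of the loci had a fold of 4.52 (3.81 to 5.97), beside a list median of 4.47. Chd7 replicate 1 peaks had a median of 4.42 (4.16 to 5.70), beside 4.60 for the list, and replicate 2 peaks had 3.33 (3.10 to 4.37), beside 3.34. The Chd8 peaks of the loci had a median width of 576 bp, beside 382 bp for the list.

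**Figure D2:**
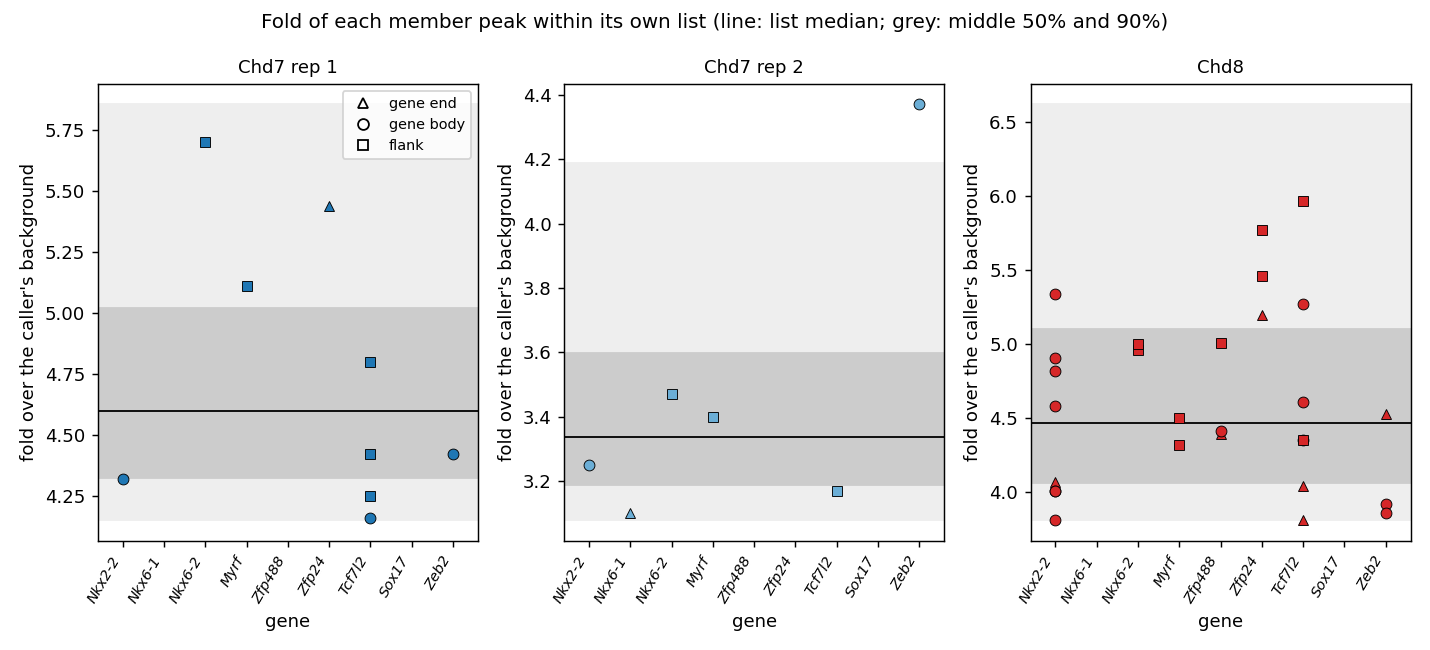
Fold over the caller's background (vertical axis, scaled separately for each library) of every ChIP peak at the 9 genes, by gene; symbols give the zone, the line is the median of the whole list and the grey bands its middle 50% and 90%. The Chd7 replicate 2 peak in Zeb2 (4.37) is the only one above its list's 90% band; the list medians are 4.60, 3.34 and 4.47.

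The bases before the start sites are shown for the 6 genes that the RefSeq promoter table covers, to set genes with and without Chd8 at the start side by side. Each line gives the 250 bases before a start site, read 5′ to 3′ on the gene's own strand (GRCm38.p6, the assembly behind mm10), with CG dinucleotides in capitals. The starts of Zfp488, Tcf7l2 and Zeb2 lay under a Chd8 peak over all 250 bases.
Zfp488, chr14:33978765-33979014, minus strand: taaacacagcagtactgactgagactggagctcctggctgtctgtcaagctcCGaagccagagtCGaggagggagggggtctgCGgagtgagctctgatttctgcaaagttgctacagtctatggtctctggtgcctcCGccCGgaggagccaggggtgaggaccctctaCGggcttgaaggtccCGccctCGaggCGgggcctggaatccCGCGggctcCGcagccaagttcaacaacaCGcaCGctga
Tcf7l2, chr19:55741560-55741809, plus strand: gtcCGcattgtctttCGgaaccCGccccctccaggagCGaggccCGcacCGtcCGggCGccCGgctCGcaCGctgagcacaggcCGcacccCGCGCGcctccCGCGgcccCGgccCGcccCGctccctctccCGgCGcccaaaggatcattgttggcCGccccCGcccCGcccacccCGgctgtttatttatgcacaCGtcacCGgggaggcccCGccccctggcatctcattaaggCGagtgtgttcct
Zeb2, chr2:45117443-45117692, minus strand: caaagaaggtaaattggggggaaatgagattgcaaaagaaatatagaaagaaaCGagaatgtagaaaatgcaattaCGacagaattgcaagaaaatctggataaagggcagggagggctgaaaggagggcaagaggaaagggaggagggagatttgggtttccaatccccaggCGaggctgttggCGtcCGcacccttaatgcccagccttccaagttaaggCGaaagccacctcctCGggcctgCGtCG
No Chd8 peak touched the next 3, of which Nkx2-2 had Chd8 peaks on both sides.
Nkx2-2, chr2:147186403-147186652, minus strand: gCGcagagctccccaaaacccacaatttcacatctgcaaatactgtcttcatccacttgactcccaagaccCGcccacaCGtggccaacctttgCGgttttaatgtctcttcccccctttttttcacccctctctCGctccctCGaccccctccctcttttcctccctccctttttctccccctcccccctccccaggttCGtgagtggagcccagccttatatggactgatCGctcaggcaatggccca
Nkx6-1, chr5:101664712-101664961, minus strand: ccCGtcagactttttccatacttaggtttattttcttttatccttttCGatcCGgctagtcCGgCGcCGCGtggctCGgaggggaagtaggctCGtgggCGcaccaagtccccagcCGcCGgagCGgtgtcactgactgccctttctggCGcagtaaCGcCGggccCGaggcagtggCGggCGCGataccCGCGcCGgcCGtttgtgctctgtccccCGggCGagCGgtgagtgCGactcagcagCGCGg
Nkx6-2, chr7:139582798-139583047, minus strand: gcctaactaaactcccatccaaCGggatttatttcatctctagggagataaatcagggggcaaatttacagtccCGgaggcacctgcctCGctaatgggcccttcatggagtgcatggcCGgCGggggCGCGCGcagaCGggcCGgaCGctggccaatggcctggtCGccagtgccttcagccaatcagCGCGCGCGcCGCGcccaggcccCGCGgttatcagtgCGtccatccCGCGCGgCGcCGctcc

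Both groups held starts with many CG dinucleotides and starts near the median of 10 over all promoters. The starts under Chd8 held 14 CG dinucleotides at Zfp488, 30 at Tcf7l2 and 9 at Zeb2, while those without it held 8 at Nkx2-2, 30 at Nkx6-1 and 26 at Nkx6-2. Over 17492 protein-coding genes with 1 promoter each, the median was 17 CG dinucleotides in the 6082 promoters that a Chd8 peak touched and 4 in the 11410 others. Chd8 touched 49.6% of the promoters with 26 or more CG dinucleotides, the class of Tcf7l2, Nkx6-1 and Nkx6-2. It touched 10.2% of those with 9 or fewer, the class of Zeb2 and Nkx2-2. These class limits equal the counts of Nkx6-2 and Zeb2. Further start sites inside Tcf7l2 (1) and Zeb2 (3), with 6 to 14 CG dinucleotides, were not touched. Within 1 kb of a start site, in place of the gene ends, 4 of the 6 genes had a Chd8 peak (Nkx2-2, Zfp488, Tcf7l2 and Zeb2), beside 43.6% of the 17492 genes.

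**Figure D3:**
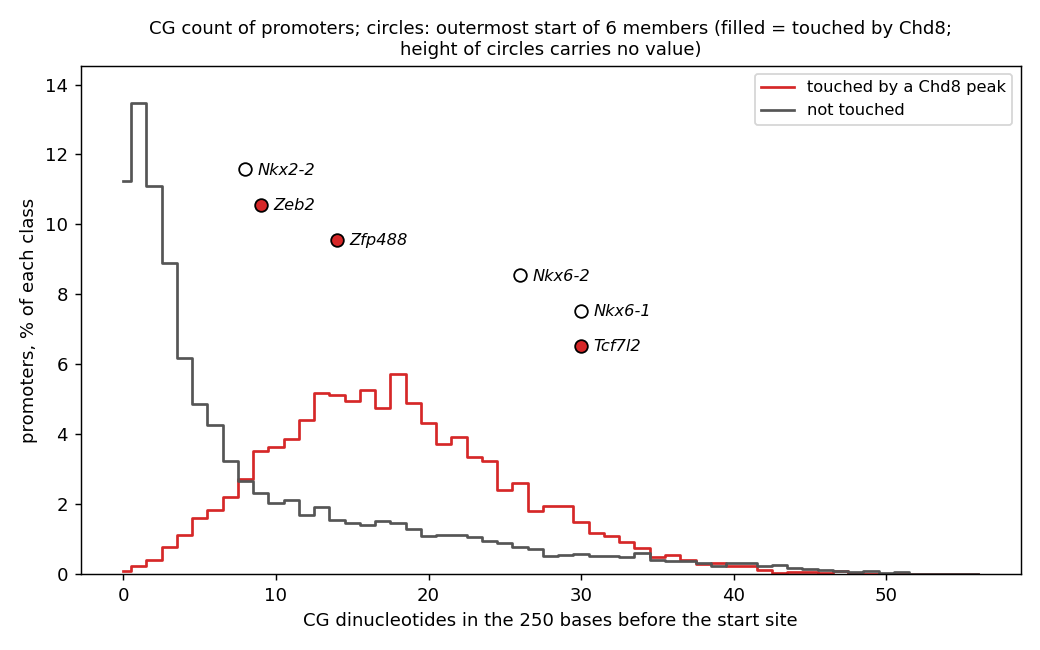
Share of promoters (vertical axis, percent of each class) by number of CG dinucleotides in the 250 bases before the start, for promoters touched by a Chd8 peak (red) and not touched (grey); circles mark the outermost start of 6 members. Both kinds of member occur at high counts and near the median of 10 over all promoters: Tcf7l2 (30) and Zeb2 (9) are touched, Nkx6-1 (30) and Nkx2-2 (8) are not.

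Letters of 6 known motifs were searched on both strands of these 250 bases. The GC box GGGCGG occurred 6 times at Tcf7l2, 2 times at Zfp488 and 1 time at Nkx2-2, and 42.7% of all promoters hold it. The E-box CANNTG, the general site of basic helix-loop-helix factors, occurred 3 times at Nkx2-2 and 1 time at Nkx6-2, and 62.7% of promoters hold it. Of its forms, CAGCTG (11.6% of promoters) had no match at any of these starts. The Sox-like letters ATTGTT (8.62%) matched at Tcf7l2. The Tcf-like letters ACAAAG (14.9%) and the ETS core CCGGAA (15.2%) had no match in the 6 sequences shown. These are matches of letters and not sites of binding.

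Nkx2-2, a homeodomain repressor that promotes differentiation of precursors, had the most Chd8 peaks per length of locus among the 9 genes (6.73 per 100 kb, a density that 2.25% of all protein-coding genes reach). The gene spans 18.9 kb on the minus strand of chromosome 2 (147176485 to 147195434), with no other protein-coding gene within 50 kb. Of its 8 Chd8 peaks, 7 lay in the body and 1 at the outer boundary, and together they covered 4232 bp, 22.3% of the gene. No other of the 11539 protein-coding genes of this length or shorter had as many (0.00867% with 8 or more, Nkx2-2 itself), and the next, 1600014C10Rik, had 7. The threshold of 8 was taken after the count at Nkx2-2 was seen. Among all protein-coding genes, 63 (0.288%) had 8 or more.

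The 8 folds ran from 3.81, at the floor of the list, to 5.34. The strongest peak, at 147180403 to 147181317, lay 5.54 kb downstream of the start site in the promoter table (147186402). The peak nearest to that start, at 147185724 to 147185921 with a fold of 4.82, was centred 0.58 kb downstream. A pair of peaks with folds of 4.91 and 4.07 was centred at -7.45 and -8.52 kb from the start, where minus means upstream, and still inside the annotated gene. The peaks at 147182915 to 147183421 and 147183991 to 147184567 lay at an end of Nkx2-2os, a long noncoding RNA gene that overlaps Nkx2-2, and strand cannot be told from the peaks. Input 3 had peaks under 5 of the 8, leaving 3. Of the genes of this length or shorter, 29 (0.251%), Nkx2-2 included, had 3 or more Chd8 peaks free of input 3. With peaks up to 1 kb apart joined, the 8 peaks formed 4 runs, and 4 genes of this length or shorter (0.0347%), Nkx2-2 included, had as many runs or more.

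**Figure D4:**
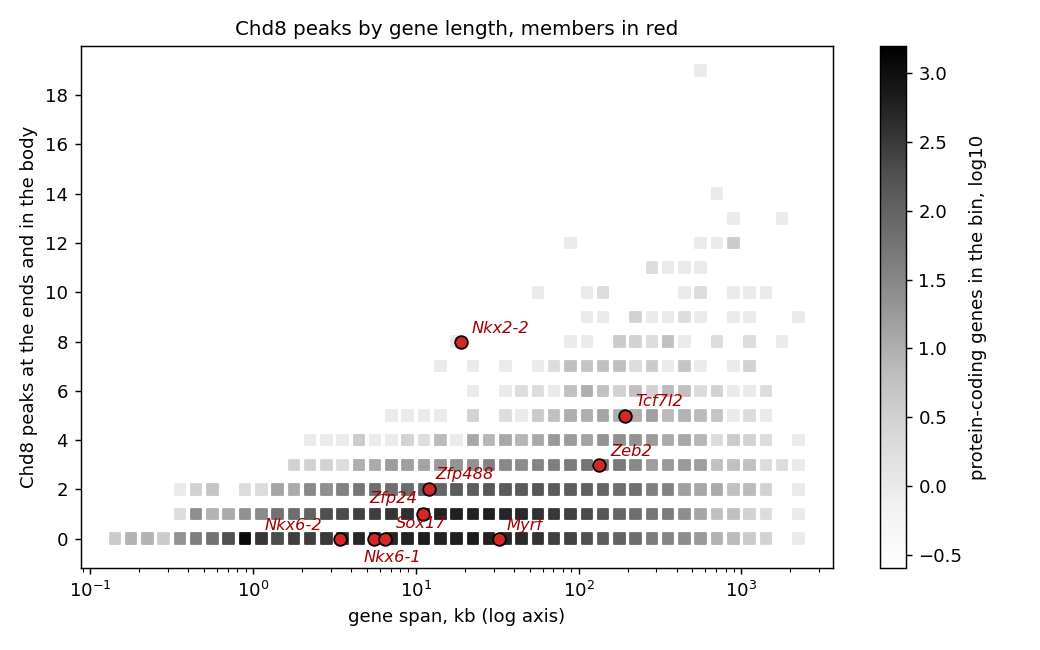
Number of Chd8 peaks at the ends and in the body of each protein-coding gene (vertical axis) by gene span in kb (log axis), with grey squares shaded by the log10 number of genes and the 9 members as red points. Nkx2-2 stands at 8 peaks above all genes of its length or shorter, Tcf7l2 at 5 and Zeb2 at 3 lie among long genes, and Nkx6-1, Nkx6-2, Myrf and Sox17 lie at 0.

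Chd7 was found once in each replicate at Nkx2-2. The replicate 1 peak, at 147180652 to 147180870, had a fold of 4.32, and the replicate 2 peak, at 147180880 to 147181314, had a fold of 3.25. Both lay inside the span of the strongest Chd8 peak of the gene, but 9 bp separated them, so they do not count as a region of both replicates. Input 3 also touched both.

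**Figure D5:**
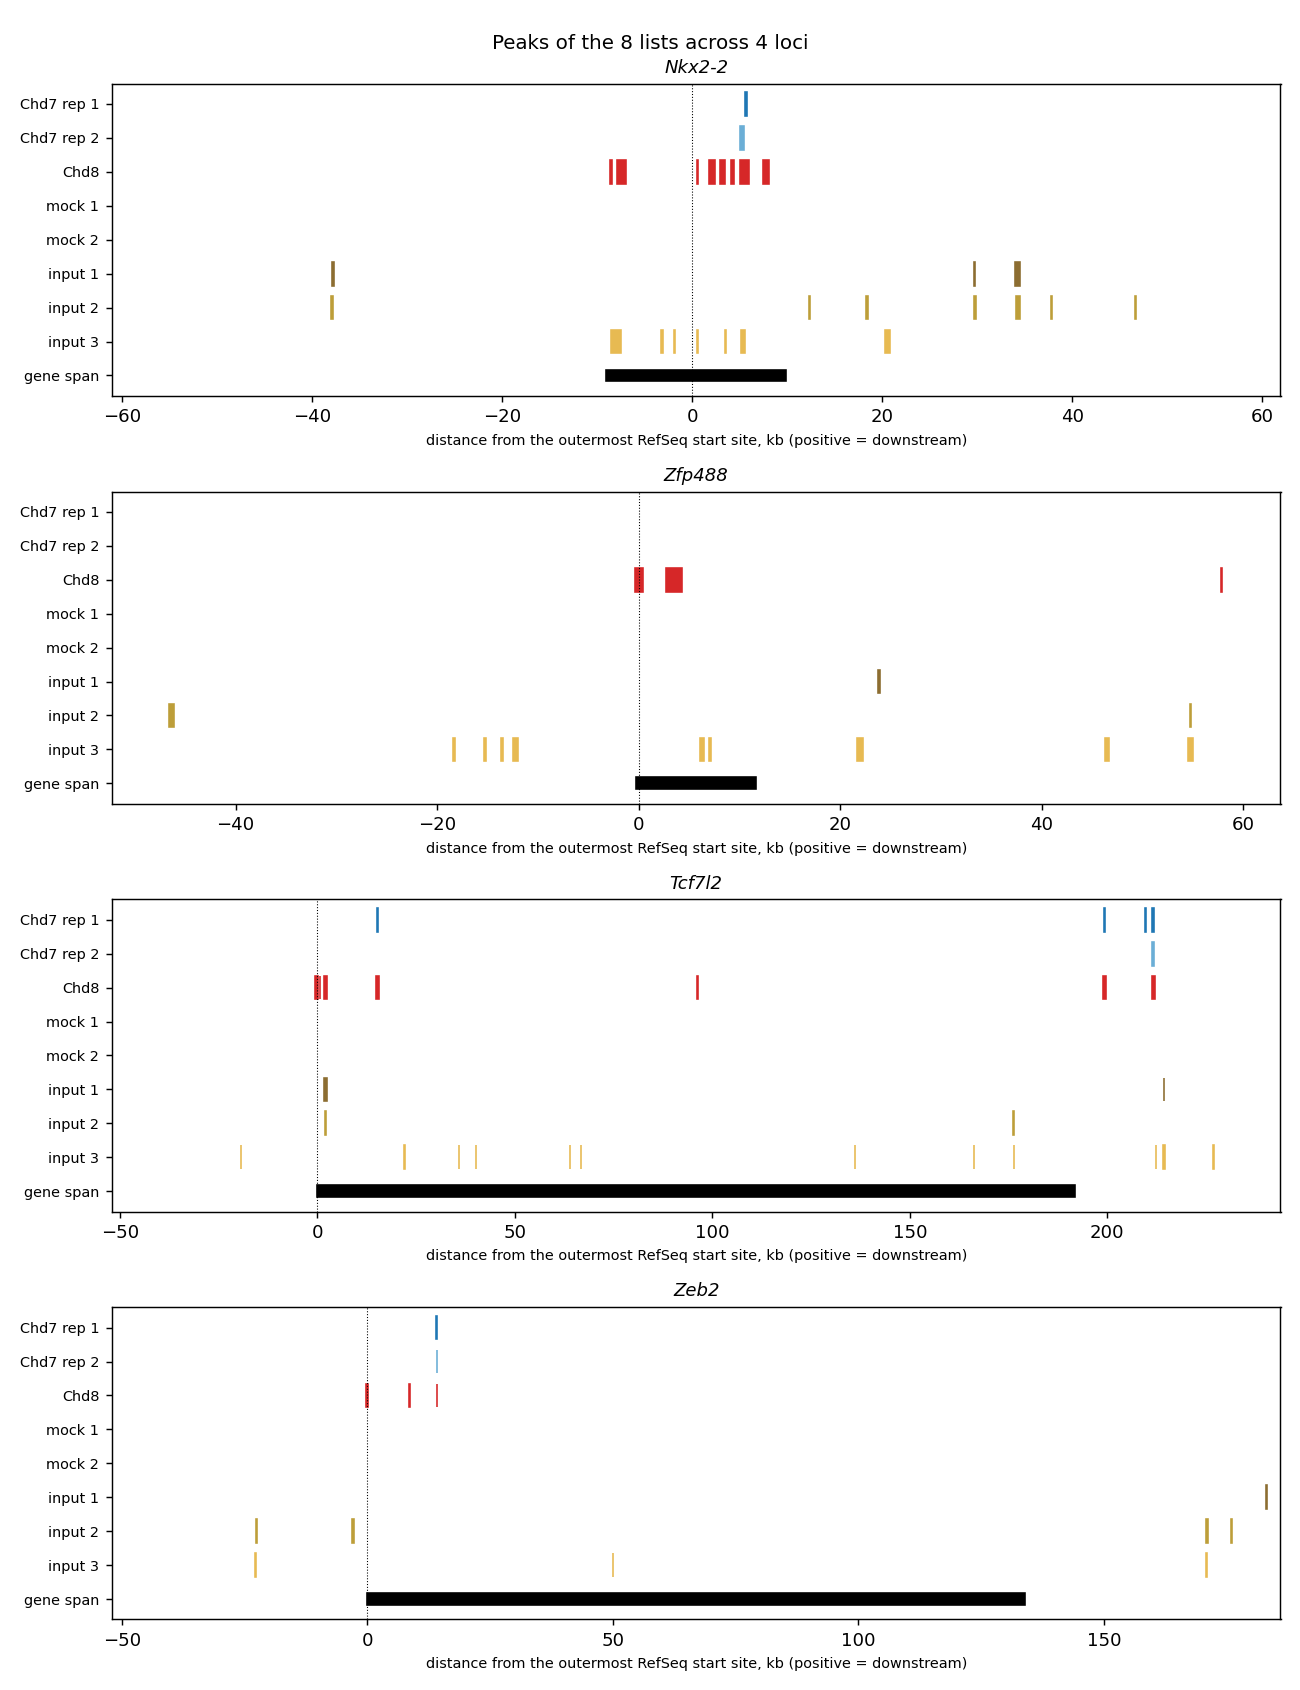
Positions of the peaks of all 8 libraries (rows) around Nkx2-2, Zfp488, Tcf7l2 and Zeb2, as distance in kb from the outermost start site in the promoter table, with the annotated gene span in black; narrow peaks are drawn with an outline so that they can be seen. Chd8 has 6 peaks downstream and 2 upstream of the Nkx2-2 start and a peak over the start of the 3 other genes; Chd7 has no peak at the 4 starts and none at all around Zfp488.

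The related homeodomain genes had no Chd8 peak at their ends or in their bodies. Nkx6-1, known for ventral patterning of neural progenitors, spans 5.5 kb on chromosome 5 (101659184 to 101664711) and had no Chd8 peak nearer than 232.6 kb. It had 1 Chd7 peak, of replicate 2, with a fold of 3.10 and a width of 99 bp. That peak began 981 bp beyond the gene boundary, just inside the 1 kb window, at 101665692, and touched a peak of input 3. Replicate 1 had no peak within 232.8 kb.

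Nkx6-2, expressed in myelinating oligodendrocytes and known for a role at axon-myelin contacts, spans 3.4 kb on chromosome 7 (139579376 to 139582797). Its end overlaps that of Inpp5a, an inositol phosphatase gene. It had ChIP peaks only in the flanks, and inputs 1 and 2 had a peak each at its ends. A site 33.8 kb away, inside Inpp5a and at an end of the pseudogene Gm33697, had a peak in each of the 3 ChIP libraries. Chd7 had folds of 5.70 in replicate 1 and 3.47 in replicate 2 there, and Chd8 had 4.96, and no input peak touched them. The mean Chd7 fold of 4.58 was higher than in 85.6% of the 1383 Chd7 regions of both replicates. That mean joins 2 lists of different scale. Within its own list, the replicate 1 fold was higher than in 92.9% of peaks and the replicate 2 fold higher than in 64.3%. On the other side, 33.2 kb away and inside Cfap46, a Chd8 peak with a fold of 5.00 stood alone.

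Myrf, a membrane-bound factor that is released by cleaving itself and switches on myelin genes, had no ChIP peak at its ends or in its body. It spans 32.5 kb on chromosome 19 (10208271 to 10240777). In the same gene, input 3 had 2 peaks at ends and 5 in the body, and over the whole locus input 3 had 26 peaks, against a median of 6 over all genes. The ChIP peaks of the locus lay at neighbours. At an end of Fads1, a fatty acid desaturase gene 25 kb away, Chd7 had folds of 5.11 and 3.40 in replicates 1 and 2 and Chd8 had 4.50. Chd8 alone lay at the facing ends of Fen1, a nuclease of DNA replication, and Tmem258, with a fold of 4.32, 3.1 kb from Myrf. Input 3 touched the replicate 2 peak and both Chd8 peaks.

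Zfp488, a zinc finger corepressor that acts with Olig2, had Chd8 and no Chd7. It spans 11965 bp on chromosome 14 (33967070 to 33979034). A Chd8 peak with a fold of 4.39 (33978331 to 33979149) covered the start site, with its centre 0.02 kb from it. A second, with a fold of 4.41 at 33974432 to 33976028, lay in the body and was 1597 bp wide, wider than 99.0% of the Chd8 list. Another lay 46.1 kb downstream with a fold of 5.01 and a width of 103 bp. No input peak touched any of the 3, although input 3 had 2 peaks in the body. The nearest Chd7 peaks were 142.4 kb away in replicate 1 and 126.3 kb away in replicate 2.

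Zfp24, a zinc finger protein that mice need for normal myelination, had the strongest Chd8 peak at an end among the 9 genes. The gene lies on chromosome 18 (24009717 to 24020813). The Chd8 peak at 24020215 to 24021218 had a fold of 5.20, and the Chd7 replicate 1 peak inside it, at 24020448 to 24021037, had a fold of 5.44. Chd7 replicate 2 had no peak within 54.6 kb. Inputs 1 and 3 had peaks at the same end, with folds of 3.52 and 3.83. The other Chd8 peaks of the locus lay at ends of the zinc finger genes Zscan30 (5.46) and Zfp35 (5.77). The flanks held 14, 15 and 14 peaks of inputs 1, 2 and 3, so that with the gene itself the locus had 15 to 16 input peaks, against medians of 5, 8 and 6 over all genes.

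Tcf7l2, the Wnt effector that binds beta-catenin and is switched on as precursors differentiate, is the longest gene of the group. It spans 191.9 kb on the plus strand of chromosome 19 (55741797 to 55933659), with no other protein-coding gene within 50 kb. Chd8 had 7 peaks, of which 3 lay near the first start, the farthest centred 2.11 kb downstream. In order along the gene they had folds of 4.04, 3.81 (the floor of the list) and 4.61. The peaks with 3.81 and 4.61 also lay at an end of Gm31734, a long noncoding RNA gene. Inputs 1 and 2 touched the peak with 4.61, and no input touched the peak over the start. At 55756736 to 55757423, inside the gene, Chd8 had a fold of 4.35 and Chd7 replicate 1 had 4.16. A further Chd8 peak in the body, at 55838032 to 55838278, had a fold of 5.27.

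Downstream of Tcf7l2, 19.3 kb beyond the gene, lay the strongest Chd8 peak of all 9 loci. It had a fold of 5.97 at 55953008 to 55953905, higher than 90.4% of the Chd8 list. Chd7 had folds of 4.80 in replicate 1 and 3.17 in replicate 2 at the same place, and no input peak touched the 3 peaks. Replicate 1 also had a peak 7.3 kb beyond the gene with a fold of 4.25, beside a Chd8 peak with 4.35, and 1 at 17.8 kb with 4.42 where Chd8 had none.

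Sox17, a SoxF factor linked to cell cycle exit of precursors, had no ChIP peak within 50 kb. It spans 6.5 kb on chromosome 1 (4490928 to 4497426). The nearest Chd8 peak was 287.9 kb away with a fold of 8.29, and the nearest Chd7 peaks were 310.3 and 287.9 kb away in replicates 1 and 2. The 3 inputs had 4, 8 and 4 peaks in the locus, so the region was not empty of called peaks.

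Zeb2, a Smad-binding repressor that counters BMP and Wnt signals and induces Smad7, had Chd8 at its start and a site of all 3 ChIP libraries inside the gene. It spans 133.9 kb on the minus strand of chromosome 2 (44983512 to 45117442), with no other protein-coding gene within 50 kb. The Chd8 peak over the outermost start, at 45117274 to 45117723, had a fold of 4.53, and a second, 1.45 kb downstream of an inner start, had 3.86. The shared site lay at 45103180 to 45103368, 7.00 kb downstream of the nearest start site. Chd7 had folds of 4.42 in replicate 1 and 4.37 in replicate 2, and Chd8 had 3.92. The Chd7 replicate 2 fold was higher than in 97.2% of its list, the Chd8 fold higher than in 15.8%. The region was 189 bp wide, and 1.95% of the 1383 Chd7 regions were narrower. No input peak touched the peaks of this site.

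The number of neighbouring genes was set beside these counts after the values had been seen, since Nkx2-2, Nkx6-1, Tcf7l2, Sox17 and Zeb2 have no other protein-coding gene within 50 kb. Of the 2484 genes alone in this sense, 29.5% had Chd8 at an end and 5.64% had a Chd7 region of both replicates at the gene or within 50 kb. In the 5 members the counts were 3 (Nkx2-2, Tcf7l2 and Zeb2) and 2 (Tcf7l2 and Zeb2). Tcf7l2 and Zeb2 are long genes (191.9 and 133.9 kb), and the 2484 genes were not matched to the members in length. Such genes had a mean of 0.550 Chd8 peaks per 100 kb, beside 1.70 for all genes, and Nkx2-2 had 6.73, Tcf7l2 2.40, Zeb2 1.28, and Nkx6-1 and Sox17 0 each.

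Other genes of the pathway were read the same way, at gene ends. Their lists were chosen with earlier results of these data known, so the counts are descriptive and test no difference from the background. Among 17 further lineage transcription factors, 15 had Chd8 and 3 had a Chd7 region of both replicates, namely Klf6, Klf9 and Creb3l2. Chd7 of either replicate lay at 10, and input 3 had peaks at 10. Klf9, a factor induced by thyroid hormone, had the highest Chd8 fold (7.42), with Chd7 at 5.03 and 3.27. It was followed by Tcf3 (7.01), a partner of basic helix-loop-helix factors, and Klf6 and Olig2 (5.34 each). Peaks of inputs 1, 2 and 3 also lay at an end of Klf9 and Creb3l2. Input 1 had a peak at an end of Klf6, and input 3 at an end of Tcf3 and Olig2. Of 15 inhibitors of differentiation and partner genes, 13 had Chd8 and 4 had a Chd7 region of both replicates: the Notch effectors Hes1 and Hes5, Sox11, and Smad7, a target that Zeb2 induces. Chd7 of either replicate lay at 9, among them Tle3 with a peak of each replicate (4.86 and 3.28) that did not overlap, and input 3 had peaks at 12. Ctnnb1, which encodes the beta-catenin that Tcf7l2 binds, had a Chd8 fold of 8.08, Hes5 had 6.47 and Smad7 had 6.21. Of 12 genes listed as nearest relatives of the members, 0 had a Chd8 peak and 0 a Chd7 region of both replicates at an end, while Chd7 of either replicate lay at 2 and input 3 at 6. Of 12 myelin genes that lie downstream of these factors, 3 had Chd8, namely Cnp (4.34), Ugt8a (4.23) and Mbp (3.81, at the floor). Input 3 had peaks at 7 of the 12. Peaks of inputs 1, 2 and 3 also lay at an end of Cnp and Mbp, and of inputs 2 and 3 at an end of Ugt8a. No myelin gene had a Chd7 region of both replicates at an end. Mbp (4.15 and 3.51) and Ugt8a (4.51 and 3.87) each had a peak of replicate 1 and a peak of replicate 2 that did not overlap. For Mbp, the replicate 1 fold was at the floor of its list. The background over all protein-coding genes was 41.0% for Chd8, 4.83% for a Chd7 region of both replicates and 22.0% for Chd7 of either replicate. For input 3 it was 45.2%.

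Likeness of the whole pattern was measured as the Euclidean distance over 24 values per gene, the log2 of 1 plus the highest fold for 8 libraries in 3 zones. The genes nearest to Zfp488 were Syt3 (0.29) and Sox4 (0.51), beside a median distance of 5.40 to all genes. Cgn and Tmbim4 (0.47 each) were nearest to Zfp24, with a median of 6.08. Nkx2-2 and Zeb2 were nearest to each other (2.22), followed by Ccz1 (2.26) for Nkx2-2 and Insig2 (2.49) for Zeb2, with medians of 6.44 and 6.40. Eps8 (2.21) and Mbnl2 (2.50) were nearest to Tcf7l2, with a median of 6.88. The nearest of all genes must lie below the median distance, so the medians give the scale only and do not show unusual likeness. The distance uses the highest peak of each zone and does not see the number of peaks, and the mock and input lists enter it as the ChIP lists do.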

How the data were processed

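ChIP-seq of O4-positive mouse cells was deposited as 8 broad peak lists of mm10, 1 per library, made with Bowtie2, SAMtools, Picard and MACS per the submitters' processing notes; no source used here gives their versions, settings or the control used in calling. The deposited lists give for each peak a score (10 times the −log10 q, within 1 unit), the fold over local background as a ratio, and the −log10 p and −log10 q, all computed by the authors' caller. Libraries were grouped by title. Track names inside the files carry other numbers for Chd7 replicate 2 (3) and Chd8 (2), which would exchange inputs 2 and 3; this is unresolved. Exon positions were not used here.

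ChIP peaks touching a mock peak by 1 bp were removed. A Chd7 region of both replicates was the merged span of overlapping peaks. Each peak went to the first zone it touched: gene end (1 kb around either boundary), body, or flank (50 kb). Genes, boundaries and promoter sequences came from RefSeq (GRCm38.p6); all 9 members matched by symbol and 6 had promoter entries. Counts over 21887 protein-coding genes were the background. No test was made, since peak lists hold no replicate values and the members are a named list. The members and gene lists were chosen with earlier results of these data known. Genes named were the members, neighbours with ChIP peaks at an end, list genes with a Chd7 region of both replicates or the 3 highest Chd8 folds, and the 2 nearest genes in pattern. Outside this rule lie 1600014C10Rik, Gm33697, Gm31734, Inpp5a, Cfap46, Nkx2-2os and Tle3, which were named after values were seen. Python 3.11.15 with NumPy 2.4.6, SciPy 1.17.1 and Matplotlib 3.10.9 was used, and the overlap code was tested on simulated data. Alternatives are given in the closing section.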

Additional observations from a re-analysis of the deposited data

How the results depend on the processing

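Counts were repeated under 12 alternatives, and 2 more were added after the data had been seen. The 5 genes with Chd8 at an end were 0 with a −log10 q of at least 5, 1 with a fold of at least 5 (Zfp24), and 3 with peaks of the matching input or of any input removed (Zfp488, Tcf7l2 and Zeb2); they were 5 with the input that the track names give, 6 with a 5 kb window and 4 of 6 by RefSeq start sites. The 0 genes with Chd7 of both replicates at an end became 1 with either replicate left out. That setting counts peaks of a single library, which 10.4% of all genes had in replicate 1 and 17.0% in replicate 2. The 2 genes with Chd7 of either replicate at an end were 0 with a −log10 q of at least 5, 1 with a fold of at least 5, 1 with peaks of the matching input removed, 0 with those of the track-name input or of any input removed, 1 by peak midpoint and 1 with either replicate left out. The 4 genes with a Chd7 region within 50 kb, and the 4 regions, were 0 under both thresholds and 1 with 10 kb flanks. Either replicate alone gave 6 such genes, with 6 regions without replicate 1 and 9 without replicate 2. Joining Chd7 peaks across gaps of up to 200 bp gave 5, the addition being Nkx2-2. The 28 Chd8 peaks became 2 and 8 under the thresholds and were between 19 and 28 otherwise. The cause of these changes beyond the peaks each setting removes was not tested. Shares of all genes under the thresholds and input removals are not given, so these changes cannot be set against those over all genes. Removing each ChIP library's matching input peaks, above, used the pairing by title. No paired analysis was possible because, beyond that, the lists hold no value of every library for the same features to which a model with a replicate block could be fitted. The lowest folds listed were 4.15, 3.03 and 3.81 for Chd7 replicates 1 and 2 and Chd8, and without reads the depth behind an absent peak is unknown.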
